A study of Arabidopsis thaliana with 18 samples.

Results

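The chloroplast genome of Arabidopsis was followed through 133 gene identifiers beginning with ATCG, taken by that prefix alone from 32744 counted genes in 18 libraries. Leaf rosettes of wild type (WT) and of era1, a knock-out line carrying a T-DNA insertion, were sampled at the stage when the first flower buds become visible, from potting soil, with nitrate supplied at 0, 2 or 10 mM. Each of the 6 combinations of genotype and nitrate had 3 libraries, which the series describes as biological replicates. The ERA1 gene codes for the farnesyltransferase beta subunit, and the series title places the comparison within adaptation to nitrogen starvation. The genotype label names the locus AT5G66470, whereas ERA1 is AT5G40280. Counts for AT5G40280 were 42 to 54 in the WT libraries and 6 to 17 in the era1 libraries, and AT5G66470 stood at 15.5 to 46.5 CPM over both genotypes (CPM scales each library to the same sum over its genes). The labels give neither the position of the insertion nor whether more than 1 mutant line was used.

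Chloroplast genomes keep a small part of the genes of their bacterial ancestor. They encode core subunits of the photosystems, the cytochrome b6f complex, ATP synthase, the NDH complex and Rubisco, along with ribosomal proteins, RNA polymerase subunits, ribosomal RNAs and transfer RNAs, while the other subunits come from the nucleus. Plastid genes are transcribed by a bacterial-type polymerase that takes nuclear sigma factors and by a nuclear phage-type polymerase. Unlike nuclear messengers, chloroplast transcripts do not carry stable poly(A) tails, and tails added after transcription mark them for decay. The libraries were built from poly(A)-selected RNA as single-end, strand-specific 3' tags, so each share below holds both how much RNA a gene had and how well it was captured, and these cannot be told apart. Fewer chloroplasts or cells and less RNA per chloroplast likewise cannot be told apart in whole rosettes.

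Each library held 4748044 to 6306900 gene counts, of which 89629 to 213694 fell on chloroplast genes. No counts at all were found for 25 of the 133 members, 24 had 1 to 97 counts over all libraries together, and 84 had 112 or more. A filter on low counts left those 84 members for testing. The 49 members that were not tested held 0.0231% of the chloroplast counts. Reads without a unique alignment were not counted to a gene. A gene with more than 1 copy can therefore lack counts whatever its RNA level, and any such reads are missing from the shares below. The RefSeq table used here lists 85 protein-coding, 37 transfer RNA and 7 ribosomal RNA entries on the chloroplast, but pairs no ATCG identifier with a name. Notes on related nuclear genes named 7 members, and the others are given by identifier with no role. Leaf mesophyll markers were high throughout, for example 2892 to 5215 CPM for RBCS1A, a small subunit of Rubisco. The floral genes AP1, AP3, PI, AG and SEP3 reached 4.09 CPM at most, and the root hair regulator RHD6 had no counts. Of the other root markers, PIP2-2 had 85.6 to 292 CPM, SCR 12.3 to 36.6 and PYK10 7.73 to 62.3, and their part in the results was not tested. Replicate 3 of era1 had the highest chloroplast share of its group at every nitrate level, and replicate 2 of WT at 2 mM was low for several members. Counts of passing members, and log2 fold changes of passing members named in a contrast, were compared without each library. Where those printed below move by more than 1.5 times, both values are given. Other log2 fold changes were not compared in this way. These include most of those for members named by annotation notes, members that did not pass and nuclear genes.

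Chloroplast genes took a larger share of the gene counts at 0 and 2 mM nitrate than at 10 mM in both genotypes, and era1 had a smaller share than WT at 0 and 2 mM. In WT the share was 3.73%, 4.06% and 3.79% in the 3 libraries without nitrate. The 2 mM libraries had 3.73%, 3.52% and 3.79%, and those given 10 mM had 2.03%, 2.08% and 1.83%. In era1 it was 2.70%, 2.84% and 3.24% without nitrate. Its 2 mM libraries had 3.10%, 3.06% and 3.35%, and those given 10 mM had 1.87%, 1.80% and 2.42%. The WT libraries at 0 and 2 mM overlapped each other and lay above every other library, and the libraries of both genotypes at 10 mM lay below all the rest and overlapped.

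From highest to lowest, the group means were 3.86% ± 0.173 (SD, n = 3) in WT at 0 mM, 3.68% ± 0.142 in WT at 2 mM, 3.17% ± 0.155 in era1 at 2 mM, 2.93% ± 0.279 in era1 at 0 mM, 2.03% ± 0.341 in era1 at 10 mM and 1.98% ± 0.132 in WT at 10 mM. Of the neighbours in this order, WT at 0 and 2 mM, era1 at 2 and 0 mM, and the genotypes at 10 mM overlapped. The share at 0 mM was 1.95 times that at 10 mM in WT and 1.44 times in era1. At 2 mM the corresponding ratios to 10 mM were 1.86 and 1.56. The era1 share was 0.758 times the WT share at 0 mM, 0.861 times at 2 mM and 1.02 times at 10 mM. Without replicate 3 the era1 mean at 10 mM was 1.83%. These shares sum over the members and were given no test.

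**Figure D1:**
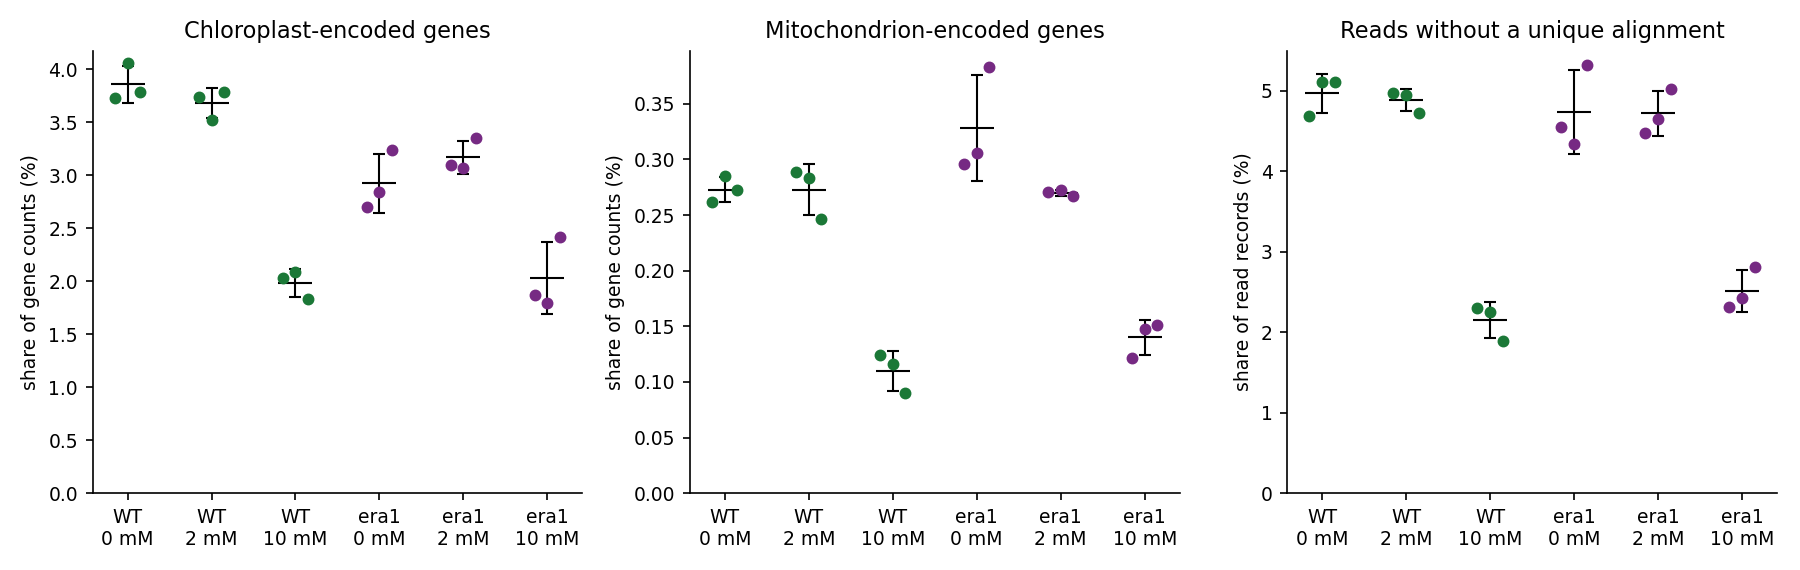
Share of gene counts on chloroplast-encoded genes (left) and mitochondrion-encoded genes (middle), and share of records whose alignment was not unique (right), all in percent, with 1 point per library (green WT, purple era1), a bar at the mean and whiskers of 1 SD. The chloroplast share at 10 mM lies near 2% in both genotypes, while at 0 mM the WT libraries sit above the era1 libraries.

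Mitochondrion-encoded genes also had a larger share without nitrate than with 10 mM, without overlap in either genotype. Their mean share was 0.273% in WT both without nitrate and with 2 mM, and 0.110% with 10 mM. For era1 the means were 0.328%, 0.270% and 0.140% in the same order. There were 14.1 chloroplast counts per mitochondrial count in WT at 0 mM and 8.96 in era1 at 0 mM, and the libraries did not overlap. At 10 mM the values were 18.2 in WT and 14.5 in era1, also without overlap, and at 2 mM 13.6 and 11.7, with overlap. The mitochondrial share at 0 mM was 2.48 times that at 10 mM in WT and 2.34 times in era1. For the chloroplast share these ratios were 1.95 and 1.44. Other features of the libraries moved with nitrate too. Reads without a unique alignment made up 4.97%, 4.88% and 2.15% of the records in WT at 0, 2 and 10 mM, and 4.74%, 4.72% and 2.52% in era1. Such reads were not counted to a gene, and 15 gene symbols have more than 1 entry on the chloroplast in RefSeq. Messengers of the morning clock genes differed sharply between nitrate levels. LHY averaged 715, 27.5 and 469 CPM at 0, 2 and 10 mM in WT and 798, 35.6 and 438 in era1. CCA1 gave 237, 14.4 and 101 in WT and 306, 14.1 and 99.3 in era1. The part of these features in the chloroplast shares was not tested.

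A few members carried most of the chloroplast counts. The top 3 held 28.4%, the top 10 held 59.4% and the top 20 held 79.6%, and 31 members made up 90%. In order of mean share of all gene counts, the leading 10 were ATCG00470 with 0.348%, ATCG00220 with 0.238%, ATCG00440 with 0.221%, ATCG00630 with 0.203%, ATCG00330 with 0.179%, ATCG00340 with 0.131%, ATCG01130 with 0.109%, ATCG01020 with 0.101%, ATCG01040 with 0.0976% and ATCG00740 with 0.0965%. Tags from a 3' kit are not scaled by length, and capture may differ between transcripts, so this order is one of counts and not of RNA molecules.

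**Figure D2:**
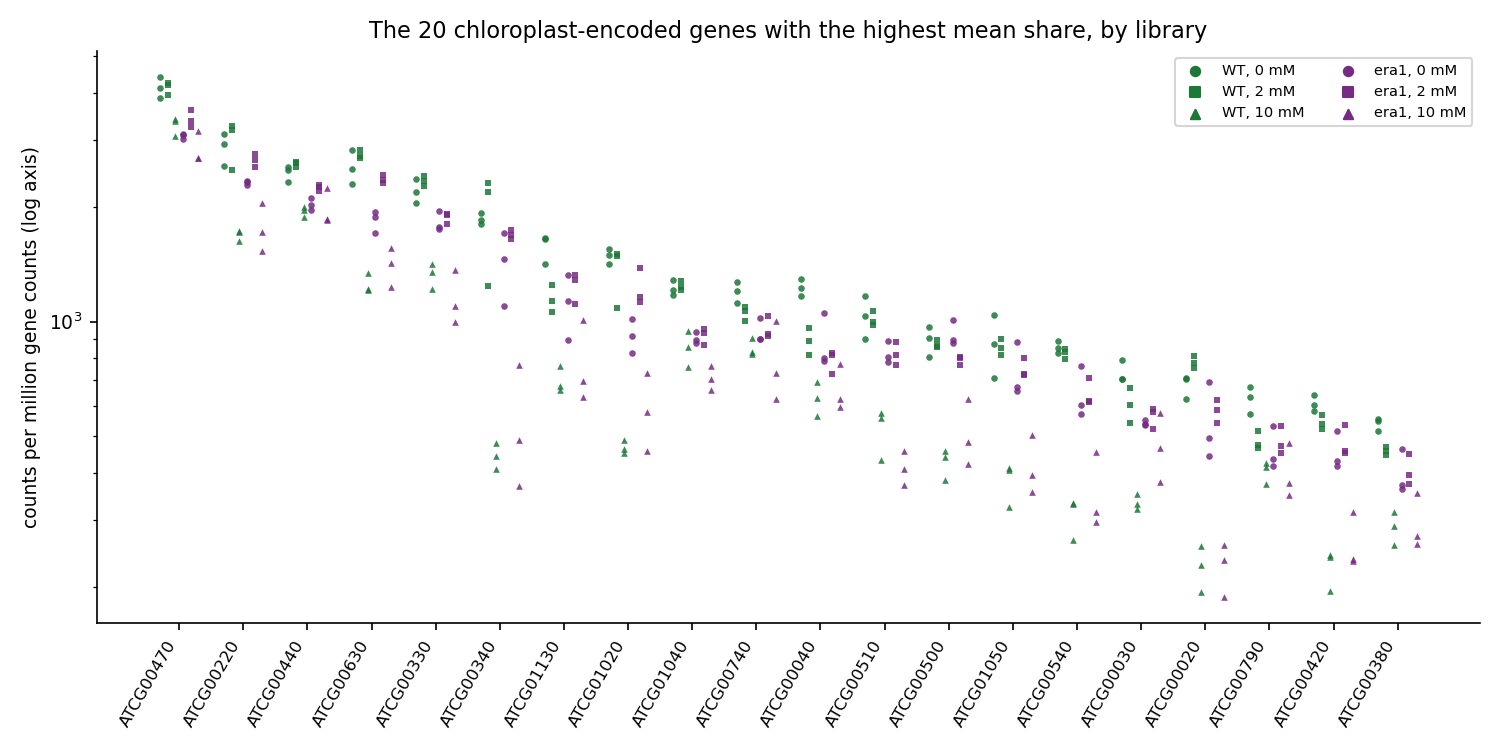
Counts scaled to the same library total (CPM, log axis) of the 20 chloroplast-encoded genes with the highest mean share, in every library (green WT, purple era1; circles 0 mM, squares 2 mM, triangles 10 mM). The triangles lie lowest for most genes, widely apart from the other symbols for ATCG00340 and ATCG01020 and close to them for ATCG00470 and ATCG00440.

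In WT nearly every tested member rose when nitrate fell from 10 to 0 mM. Fold changes were fitted with TMM factors, which rescale each library beyond its total, whereas CPM values use the total alone. The factors were 0.964 to 0.970 in WT at 0 mM, 1.101 to 1.115 in era1 at 0 mM and 0.983 to 1.02 at 10 mM. At 2 mM they were 0.929 to 0.951 in WT and 0.985 to 0.999 in era1. Fold changes of era1 at 0 mM against another group are therefore lower than the CPM values alone give. Those of WT at 2 mM against another group are higher. By edgeR's quasi-likelihood test with Benjamini-Hochberg adjustment at 0.05, 83 of 84 were higher at 0 mM and 0 were lower, where 26.9% of all 18358 tested genes were higher and 26.7% lower. The median log2 fold change was 1.51 over the members and 0.01 over all genes, and 68 members rose at least 2-fold. For all 84 every 0 mM library lay above every 10 mM library in CPM, as for 28.6% of all tested genes. ATCG00550 missed the threshold with a log2 fold change of 1.29 ± 0.61 (SE) and an adjusted p of 0.0795. Between 2 and 10 mM in WT, 76 members were higher and 0 lower, against 28.8% and 28.3% of all genes, with a median of 1.39 and 55 at least 2-fold higher. These 2 comparisons share the 10 mM libraries. In both, 0 members were lower at an unadjusted p under 0.05 by edgeR, and 84 and 77 were higher. By DESeq2 at an adjusted p under 0.05, 0 members were lower in both, and 89 and 78 were higher. DESeq2 was run without the filter on low counts, so its calls here and below are not limited to the 84. Shares of all genes by DESeq2 or at an unadjusted p are not given. Without replicate 2 of WT at 10 mM the log2 fold change of ATCG00210, with few counts, was 4.48 in both.

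The largest rises in WT were in members with few counts, and the size of the rise went down with the level of the gene. ATCG00250 had 9.27, 5.50 and 9.83 CPM at 0 mM and 1.01, 0.421 and 0.613 at 10 mM, a log2 fold change of 3.57 ± 0.44. Next came ATCG00210 with 2.92, ATCG00640 with 2.77, ATCG00290 with 2.67 and ATCG00150 with 2.64. At 2 against 10 mM ATCG00080 and ATCG00730, both more abundant, rose by 2.69 ± 0.19 and 2.67 ± 0.21 on the log2 scale. The median WT log2 fold change between 0 and 10 mM was 0.78 for the 10 most counted members, 1.19 for ranks 11 to 30 and 1.60 for the 54 tested members below. Across the 84 genes, which are not independent replicates, the Spearman correlation of level with this fold change was -0.44. In the WT libraries at 10 mM, ATCG00250, ATCG00210, ATCG00640 and ATCG00290 had at most 6 counts, below the filter's minimum count of 10. The filter kept them through groups where they were higher. Members with few counts at 10 mM were tested only if higher elsewhere, so the filter in part sets these medians and this correlation.

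ATCG00470, the member with the most counts, rose least of the 84 in WT between 0 and 10 mM. It had 4115, 4404 and 3874 CPM without nitrate, 3943, 4238 and 4180 with 2 mM, and 3361, 3404 and 3086 with 10 mM. Neither low-nitrate group overlapped the 10 mM group. The log2 fold change was 0.36 ± 0.07 at 0 mM and 0.40 ± 0.07 at 2 mM, with adjusted p of 6.33e-05 and 1.36e-05 by edgeR. ATCG00440 was close to it at 0.36 ± 0.06 and 0.49 ± 0.06.

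ATCG00340 was the member of the leading 10 with the greatest rise. In WT it had 1854, 1808 and 1932 CPM without nitrate, 2191, 1238 and 2319 with 2 mM, and 443, 480 and 410 with 10 mM. Replicate 2 at 2 mM was low but still far above the 10 mM libraries. The log2 fold change was 2.1 ± 0.20 at 0 mM and 2.18 ± 0.20 at 2 mM. ATCG01020 followed with 1.70 ± 0.13 and 1.62 ± 0.13, and, beside these and ATCG00470 and ATCG00440, the other leading members lay between 0.52 and 1.20 at 0 mM.

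Because the members rose by unequal amounts, the make-up of the chloroplast counts changed with nitrate. ATCG00470 made up 16.6%, 16.3% and 16.8% of the chloroplast counts in the WT libraries at 10 mM and 11.0%, 10.9% and 10.2% at 0 mM. For ATCG00340 the values were 2.18%, 2.30% and 2.24% with 10 mM, against 4.97%, 4.46% and 5.10% without nitrate. The 10 leading members together held 64.8% ± 1.29 (SD, n = 3) with 10 mM, 58.4% ± 1.35 with 2 mM and 55.9% ± 0.231 without nitrate in WT, without overlap. In era1 the same members held 62.1% ± 1.40, 58.7% ± 0.799 and 56.2% ± 2.60, with overlap between 2 and 0 mM.

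**Figure D3:**
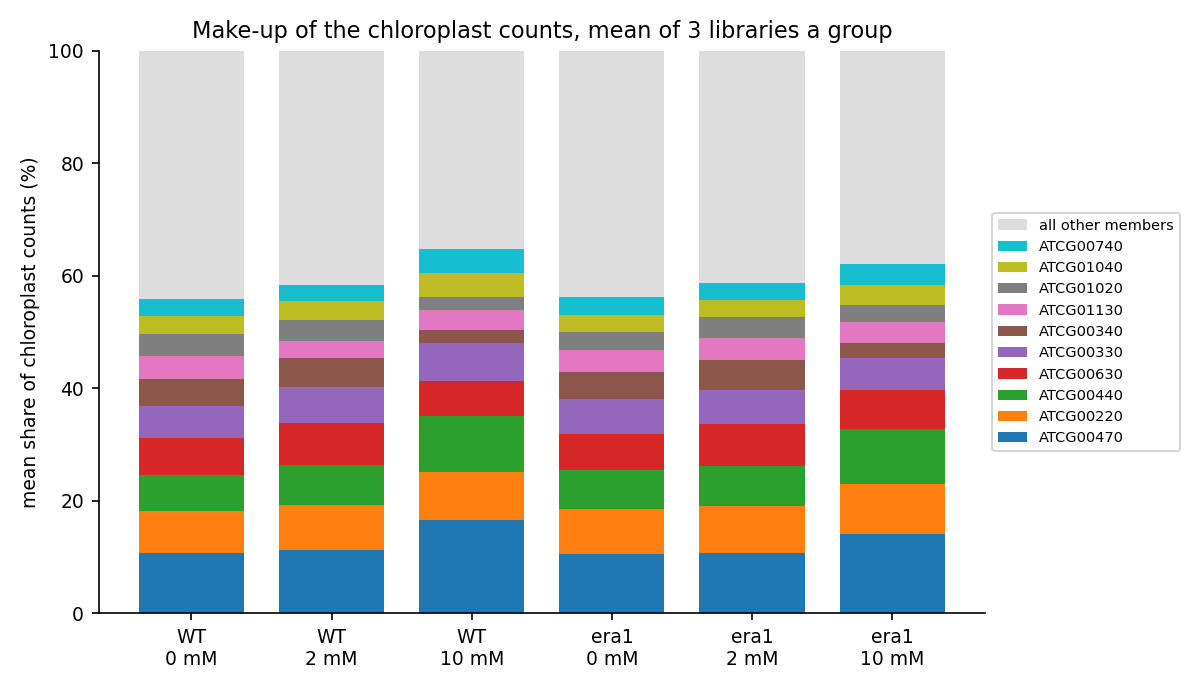
Mean share of the chloroplast counts (%) held by each of the 10 most counted members and by all others (grey), per group of 3 libraries. The lowest segment, ATCG00470, is 16.6% in WT at 10 mM and 10.7% in WT at 0 mM.

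Between 0 and 2 mM in WT most members did not pass. Of the 84, 13 were higher at 0 mM and 1 lower, where 20.3% and 22.1% of all genes were (42.4% in either direction), and the median log2 fold change was 0.12. ATCG00930, ATCG00370, ATCG00050, ATCG00250 and ATCG00650 rose by 0.97, 0.95, 0.89, 0.76 and 0.71, and ATCG00690 fell by 0.40. ATCG00650 was the one of these with many counts, at 549, 576 and 575 CPM without nitrate, 348, 278 and 380 with 2 mM, and 163, 191 and 170 with 10 mM, so its 3 WT groups were all separate. Without replicate 2 of WT at 0 mM, 9 members passed, and by edgeR ATCG00050 then gave 0.63 (adjusted p 0.0653), ATCG00930 0.82 (0.115) and ATCG00690 -0.32 (0.156). ATCG00250 gave 0.61 (0.153) without replicate 3 at 0 mM. The calls for ATCG00930 and ATCG00690 ended also without replicate 1 at 0 mM or replicate 1 or 3 at 2 mM, and that for ATCG00250 also without replicate 1 at 0 mM or any library at 2 mM. ATCG00690 gave -0.35 and did not pass by library totals alone.

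In era1 most members also rose at low nitrate, with lower medians than in WT. Between 0 and 10 mM 63 of 84 were higher and 0 lower, against 27.5% and 28% of all genes, the median log2 fold change was 0.66 and 15 were at least 2-fold higher. Between 2 and 10 mM 70 were higher and 0 lower, against 25.5% and 26.5% of all genes, with a median of 0.90 and 36 at least 2-fold higher. ATCG00470 had 3117, 3023 and 3091 CPM at 0 mM and 2699, 2689 and 3165 at 10 mM, which overlapped, and the log2 fold change was -0.01 ± 0.07 with an adjusted p of 0.891. By library totals alone, the scale of the CPM values, it was 0.11 ± 0.06. ATCG00440 gave -0.09 ± 0.06, or 0.04 ± 0.06 by library totals alone, and did not pass with the TMM factors. ATCG00340 rose by 1.27 ± 0.20 on the log2 scale at 0 mM and by 1.68 ± 0.20 at 2 mM. In both comparisons 0 members were lower at an unadjusted p under 0.05 by edgeR, or at an adjusted p under 0.05 by DESeq2.

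Other large rises in era1 were in ATCG00410 with 1.77, ATCG00065 with 1.75 and ATCG01090 with 1.75 at 0 mM, and in ATCG00570 with 2.37, ATCG00065 with 1.77, ATCG00080 with 1.74 and ATCG00280 with 1.71 at 2 mM. For ATCG01090 the era1 libraries at 0 and 10 mM overlapped. ATCG00570 had 3, 0 and 3 counts in the era1 libraries at 10 mM. ATCG00065 rose in WT by 1.62 ± 0.23 and 1.63 ± 0.23, and its interaction with genotype at 0 mM was 0.13 ± 0.34. ATCG00210 had only 2 counts in the 3 era1 libraries at 10 mM together. Its ratio of CPM was 11.3 at 0 mM (95% exact interval 2.77 to 98.9, from 22 counts) and 14.0 at 2 mM (3.54 to 121, from 29 counts), which covers counting error only. By edgeR its log2 fold change of 3.13 at 0 mM became 2.47 (adjusted p 0.104) without replicate 3 at 0 mM and 2.64 (0.0607) without replicate 2 at 10 mM.

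Between 0 and 2 mM in era1, 2 members were higher and 27 lower, against 23.7% and 26% of all genes (49.7% in either direction), with a median log2 fold change of -0.23. The higher ones were ATCG00050 with 0.65 and ATCG00310 with 0.34, and the lowest were ATCG00290 with -1.39, ATCG00570 with -1.38 and ATCG00590 with -0.74. By edgeR ATCG00310 gave 0.15 (adjusted p 0.367) without replicate 3 at 0 mM, ATCG00050 gave 0.44 (0.214) without replicate 2 at 0 mM, and ATCG00570 gave -1.15 (0.101) without replicate 3 at 2 mM. The same calls ended also without replicate 2 or 3 at 2 mM for ATCG00310, replicate 1 or 3 at 2 mM for ATCG00050, and replicate 1 or 2 at 0 mM for ATCG00570. By library totals alone 5 members were higher and 10 lower, against 34.9% and 18.8% of all genes, with a median of -0.07. The count of members passing was 29 with all libraries, 47 without replicate 3 at 0 mM, 16 and 17 without replicates 1 and 2 at 0 mM, and 15 without replicate 3 at 2 mM.

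**Figure D4:**
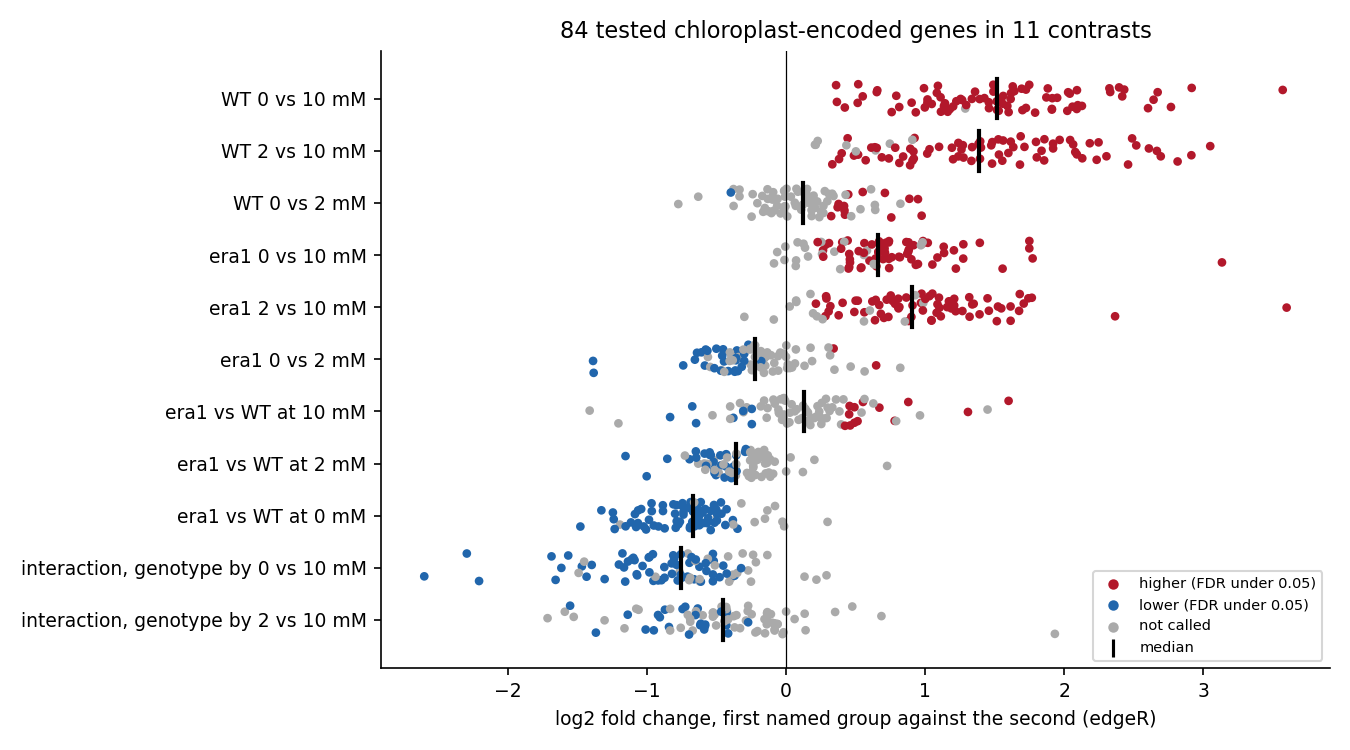
log2 fold changes of the 84 tested chloroplast-encoded genes in 11 contrasts (1 point per gene, red higher and blue lower past an adjusted p of 0.05, grey not passing, black line the median). In the 4 contrasts against 10 mM the passing genes are all higher, and at 0 mM the passing genes of era1 against WT are all lower.

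With 0 mM nitrate, era1 had lower levels than WT for most members. Of 84, 72 were lower and 0 higher, where 24.6% and 24.5% of all genes were, and the median log2 fold change was -0.67. At an unadjusted p under 0.05, 76 were lower and 0 higher by edgeR. DESeq2, run without the filter, called 66 members lower and 0 higher. By library totals alone 62 were lower and 0 higher, with a median of -0.48, where 16.8% of all genes were lower and 39.7% higher. The lowest were ATCG00570 with -1.48, ATCG00400 with -1.33, ATCG00640 with -1.25, ATCG00930 with -1.24 and ATCG00370 with -1.23. ATCG00570 gave -1.17 without replicate 1 of WT (adjusted p 0.0970 by edgeR) and ATCG00930 gave -1.91 without replicate 3 of era1. ATCG00400 had 7.72, 5.82 and 6.50 CPM in era1 against 16, 14.2 and 13.8 in WT, with no overlap. Among the 12 that did not pass, ATCG00500 had a log2 fold change of -0.14 ± 0.10 and, by library totals alone, of 0.06 ± 0.10, with 880 to 1010.3 CPM in era1 and 807 to 965 in WT, and ATCG01090 gave 0.30 ± 0.39.

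At 2 mM 28 members were lower in era1 and 0 higher, against 11.1% and 10.9% of all genes, with a median of -0.36. By library totals alone 22 were lower and 0 higher, against 7.75% and 15.3% of all genes, with a median of -0.28. ATCG01090, ATCG00350 and ATCG00100 were lowest, at -1.16, -1.003 and -0.85, and ATCG01090 gave -0.50 (adjusted p 0.455 by edgeR) without replicate 1 of WT and did not pass without replicate 3 of WT or replicate 1 or 3 of era1 either, nor by library totals alone, with -1.07. At an unadjusted p under 0.05, 41 were lower and 0 higher by edgeR. DESeq2, run without the filter, called 25 members lower and 0 higher. At 10 mM 13 were higher and 7 lower, against 15.4% and 14.3% of all genes (29.7% in either direction), and the median was 0.13. The higher members included ATCG00250 with 1.60, ATCG00730 with 1.31, ATCG00590 with 0.88, ATCG00620 with 0.78 and ATCG00080 with 0.67. ATCG00730 had 41.0, 32.8 and 73.4 CPM in era1 and 19.4, 21.5 and 16.8 in WT, so replicate 3 of era1 was the highest and the groups were still separate. The lower members were ATCG00140 with -0.83, ATCG00400 with -0.68, ATCG00480 with -0.65, ATCG00510 with -0.38, ATCG01040 with -0.31, ATCG00330 with -0.25 and ATCG00470 with -0.25. Without replicate 3 of era1, ATCG00250 gave 0.78, ATCG00620 0.33 and ATCG00080 0.25 and did not pass, and ATCG00590 gave 0.51 and did. ATCG00400 gave -0.33 without replicate 1 of WT, ATCG00140 gave -0.66 without replicate 1 of era1 and ATCG00330 gave -0.15 without replicate 1 of era1, none of which passed. Other single libraries also ended calls at 10 mM, namely replicate 3 of WT for ATCG00080, ATCG00250 and ATCG00620, replicate 2 of WT for ATCG00250, ATCG00330 and ATCG00620, replicate 1 of WT for ATCG00330 and ATCG00620, replicate 1 of era1 for ATCG00400 and ATCG00620, replicate 2 of era1 for ATCG00330 and ATCG00400, and replicate 3 of era1 for ATCG00400. ATCG00330 gave -0.39 and passed without replicate 3 of era1, and gave -0.20 and did not pass by library totals alone. Without replicate 3 of era1 at 10 mM, 3 members were higher and 9 lower at 10 mM, without replicate 3 of WT 3 and 8, and without replicate 1 of WT 7 and 5.

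The difference between the genotypes in the response to nitrate was tested as an interaction, which is the era1 log2 fold change minus the WT one. A smaller rise below means that this value was negative, also where the member did not rise in era1. Between 0 and 10 mM, 58 of 84 members had a smaller rise in era1 and 0 a greater one, against 19.3% and 15.6% of all genes, with a median of -0.76. The fitted rise was greater in WT for 81 of 84 members. Between 2 and 10 mM, 24 had a smaller rise and 0 a greater one, against 8.09% and 7.7% of all genes, with a median of -0.45. At an unadjusted p under 0.05 by edgeR the numbers were 65 smaller and 0 greater at 0 mM and 36 and 1 at 2 mM. DESeq2, run without the filter, called 54 and 0 at 0 mM and 18 and 0 at 2 mM. By library totals alone 45 had a smaller rise and 0 a greater one at 0 mM, against 14.2% and 23.9% of all genes. At 2 mM the numbers were 18 and 0, against 6.76% and 8.51% of all genes. Removing replicate 3 of era1 at 10 mM left 39 members with a smaller rise at 0 mM and 7 at 2 mM. The 2 mM count was 10 without replicate 3 of WT at 10 mM, 13 without replicate 1 of WT at 2 mM, and 14 without replicate 1 or replicate 2 of era1 at 2 mM.

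ATCG01020 showed the greatest such difference among the leading 10. It had 1497, 1553 and 1416 CPM in WT at 0 mM and 462, 489 and 451 at 10 mM, compared with 826, 1015 and 919 and with 579, 456 and 732 in era1. The libraries of the genotypes did not overlap at 0 mM and did at 10 mM. The interaction was -1.18 ± 0.18 with an adjusted p of 2.04e-05 by edgeR. ATCG00630 gave -0.78 ± 0.11 and ATCG01130 -0.81 ± 0.19.

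**Figure D5:**
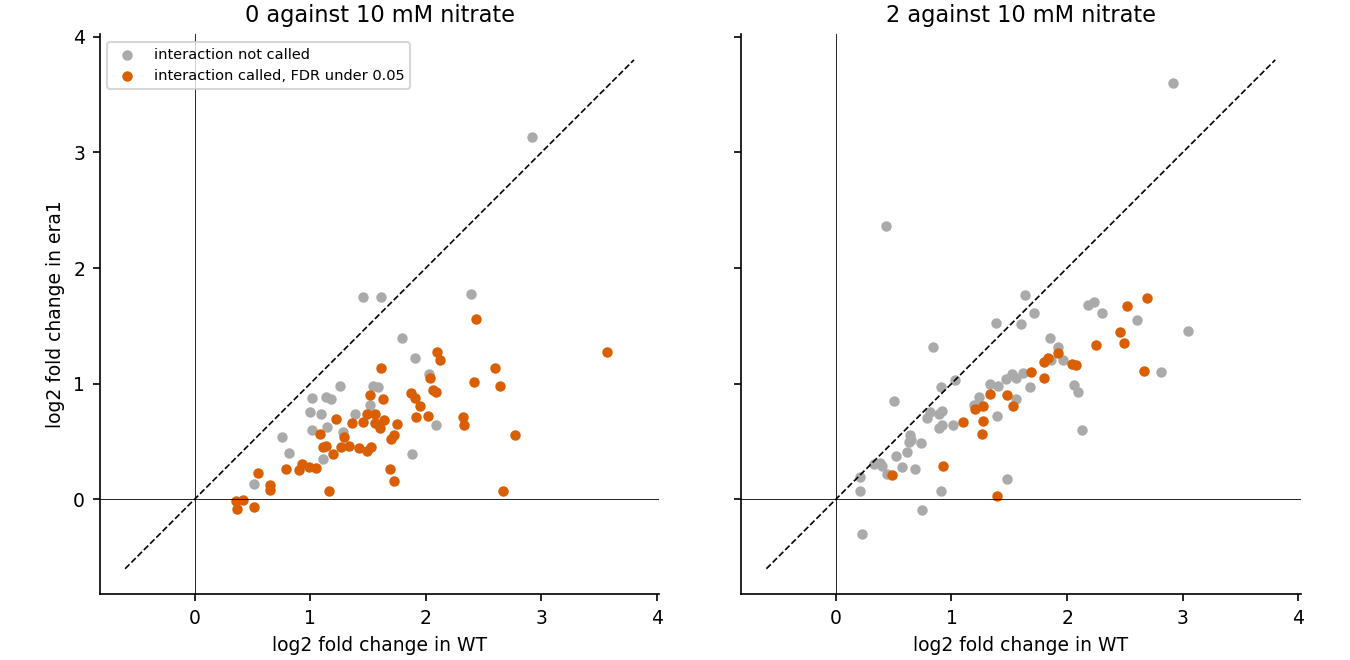
log2 fold change in era1 (y) against WT (x) of the 84 tested chloroplast-encoded genes, for 0 against 10 mM (left) and 2 against 10 mM (right), with genes past an adjusted p of 0.05 for the interaction in orange and the dashed line at equal change. Most points lie under the dashed line, and the highest point in both panels is ATCG00210, whose era1 value rests on 2 counts at 10 mM.

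The members named by annotation notes can be described by role. Of the NDH complex, which cycles electrons around photosystem I, ATCG00420 matched ndhJ through its annotated nuclear copy (88.2% identity over 169 bases), and ATCG00430 carries the name photosystem II reaction center protein G, an older name for an NDH subunit. ATCG00430 had 251, 285 and 256 CPM in WT at 0 mM and 70.1, 66.3 and 57.2 at 10 mM, and 165, 172 and 225 against 76.7, 71.8 and 119 in era1. It rose by 2.06 ± 0.14 in WT and 0.95 ± 0.14 in era1 on the log2 scale, and the interaction was -1.11 ± 0.20 with an adjusted p of 0.000107 by edgeR. ATCG00420 rose by 1.46 ± 0.10 and 0.67 ± 0.10, and its interaction was -0.79 ± 0.15.

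ATCG00670 is noted as the plastid-encoded ClpP, the catalytic subunit of the stromal Clp protease. It had 156, 175 and 167 CPM in WT at 0 mM and 32.7, 34.1 and 27.4 at 10 mM, against 120, 140 and 196 and 38.9, 34.8 and 68.9 in era1. Its rises of 2.43 ± 0.18 in WT and 1.56 ± 0.17 in era1 were the steepest of the annotated members. At 0 mM the genotypes overlapped, with a log2 fold change of -0.32 ± 0.16 and an adjusted p of 0.0902 by edgeR. ATCG00530, noted as related to the envelope protein CemA, rose by 1.51 ± 0.15 and 0.90 ± 0.15.

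Of the 3 members that the notes name as ribosomal proteins, 2 were tested. ATCG00660, ribosomal protein L20, had 445, 447 and 365 CPM in WT at 0 mM and 236, 240 and 166 at 10 mM, and rose by 0.997 ± 0.13 in WT and 0.76 ± 0.13 in era1, with an interaction of -0.24 ± 0.19 that did not pass. ATCG00750, ribosomal protein S11, had 39.4, 35.5 and 30.9 against 24.3, 28.6 and 22.7 in WT, a rise of 0.51 ± 0.15. In era1 it had 17.0, 18.7 and 29.5 at 0 mM and 19.8, 20.9 and 22.2 at 10 mM, and its log2 fold change of -0.06 ± 0.16, or 0.06 ± 0.16 by library totals alone, did not pass. ATCG01310, ribosomal protein L2, had no counts in any library. RefSeq lists 2 chloroplast entries for rpl2.

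Nuclear genes that serve the same complexes did not follow the chloroplast members throughout. Of 26 nuclear partner subunits of Rubisco, the photosystems, cytochrome b6f, ATP synthase and NDH, 14 rose and 4 fell in WT between 0 and 10 mM (median log2 fold change 0.22), whereas in era1 1 rose and 21 fell (median -0.62). Of all genes 26.9% rose and 26.7% fell in WT there, and 27.5% and 28% in era1. At 0 mM all 26 were lower in era1 than in WT, with a median of -0.91, where 24.6% of all genes were lower, and by library totals alone 24 were. PETC, the Rieske protein of cytochrome b6f, rose by 0.86 ± 0.07 in WT and gave 0.02 ± 0.07 in era1. RBCS2B, a small subunit of Rubisco, was lower in era1 at 0 mM, with -1.74 ± 0.09, although its near-identical copies may exchange reads. Between 2 and 10 mM 19 rose and 5 fell in WT, against 28.8% and 28.3% of all genes, and 18 rose and 5 fell in era1, against 25.5% and 26.5%. NDHM, of the NDH complex, fell by 0.86 in WT there.

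Of 24 nuclear genes of plastid transcription and RNA processing, 5 rose and 12 fell in WT between 0 and 10 mM (median -0.26), and 2 rose and 19 fell in era1 (median -0.51), where the shares of all genes were again 26.9% and 26.7% in WT and 27.5% and 28% in era1. Between 2 and 10 mM 0 rose and 14 fell in WT, while 2 rose and 10 fell in era1, against 28.8% and 28.3% of all genes in WT and 25.5% and 26.5% in era1. SIG5, a stress- and light-responsive sigma factor, averaged 470, 58.8 and 228 CPM at 0, 2 and 10 mM in WT and 556, 42.9 and 172 in era1, so it was highest at 0 mM and lowest at 2 mM, as LHY and CCA1 were. RPOTp, the phage-type plastid polymerase, fell by 0.93 ± 0.13 in WT and by 0.41 ± 0.13 in era1 between 0 and 10 mM, where library totals alone gave -0.28 in era1, which did not pass. CSP41A and CSP41B, plastid RNA-binding proteins that stabilise transcripts, were lower in era1 than in WT at 0 mM by -1.03 ± 0.08 and -1.14 ± 0.08.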

How the data were processed

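Gene counts per library were deposited by the authors as raw counts, 1 table per sample. The labels' protocols give a QuantSeq 3' poly(A) kit, single-end and stranded. TopHat2 and TAIR10 are named in the submitters' processing notes, and the tables carry the 5 summary counters of HTSeq. Neither library sizes nor tests used those counters. Records with no feature made up 3.75% to 5.72%, ambiguous ones 0.116% to 0.141% and those without a unique alignment 1.89% to 5.33%. Samples were grouped by title into 6 groups of 3. The chi-square per degree of freedom between libraries of a group was 1.50 to 4.44, so all differed by more than counting error. This value cannot tell biological replicates from separate libraries of the same RNA.

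Shares are counts over all gene counts, and CPM values, computed from the deposited counts, use the same total. All 18 libraries entered 1 edgeR 4.0.16 model of 6 groups without covariates, with TMM scaling and filterByExpr (minimum count 10, minimum total 15). The quasi-likelihood test with Benjamini-Hochberg adjustment over 18358 genes was run in 11 contrasts at 0.05. The procedure was tested on simulated data in which 200 genes changed in 1 group. Far more genes changed here, so the simulation does not test the scaling under such broad change. Alternatives were RLE or nuclear-gene scaling, DESeq2 1.42.0, no filter, a replicate block, only the groups compared, other denominators, leaving out each library and, chosen after seeing the data, library totals alone with no scaling factors.

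Members and lists were chosen with earlier results of these data known. Named members are the 10 with the highest mean share, up to 5 passing members per direction with the largest change in each contrast, members passing against the majority where 5 or fewer, and up to 4 genes of each nuclear list. Members named by annotation notes, and ATCG00550, ATCG00500 and ATCG01090 as examples of members that did not pass, were added after values were seen. The rule's named genes by symbol and the classes by function could not be formed, since no ATCG identifier is paired with a symbol in the RefSeq table (TAIR10.1). One of 25 written nuclear genes of plastid expression did not match its name there and was dropped. Intervals cover counting error only.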

Additional observations from a re-analysis of the deposited data

Results flagged for a closer look

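The change from 10 to 0 mM nitrate differed between era1 and WT by edgeR's interaction test for 13 of the named members, each with a lower log2 fold change in era1. For ATCG00470 and ATCG00440 among them, no rise passed in era1. As era1 minus WT on the log2 scale, the differences (± SE) were -2.60 ± 0.76 for ATCG00290, -2.30 ± 0.62 for ATCG00250, -2.21 ± 0.62 for ATCG00640, -1.69 ± 0.29 for ATCG00730 and -1.66 ± 0.43 for ATCG00150. The first 3 rest on few counts in WT at 10 mM. There ATCG00290 had 3, 2 and 0 counts, ATCG00250 had 5, 2 and 3, and ATCG00640 had 5, 3 and 6. The filter kept these members through groups where they were higher. Among the most counted members they were -1.18 for ATCG01020, -0.82 for ATCG00340, -0.81 for ATCG01130, -0.78 for ATCG00630, -0.53 for ATCG00220, -0.45 for ATCG00440, -0.37 for ATCG00470 and -0.32 for ATCG01040. Without replicate 3 of era1 at 10 mM, ATCG00250 gave -1.47 (adjusted p 0.0779 by edgeR), ATCG00340 -0.48 (0.140) and ATCG01040 -0.27 (0.0517), so these 3 no longer passed. Without replicate 3 of WT at 10 mM, ATCG00340 gave -0.77 (0.0555) and ATCG01040 -0.25 (0.0582). ATCG00340 gave -0.66 (0.0741) without replicate 1 of era1 at 0 mM, and ATCG01040 -0.27 (0.0515) without replicate 1 of WT at 0 mM. By library totals alone ATCG00340 gave -0.67, ATCG00470 -0.22 and ATCG01040 -0.17, and these 3 did not pass.

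The rise from 10 to 2 mM differed in the same direction for 7 named members. The differences were -1.55 for ATCG00730, -1.37 for ATCG00620, -1.14 for ATCG00690, -1.01 for ATCG00590, -0.95 for ATCG00080, -0.42 for ATCG00630 and -0.27 for ATCG00440. Without replicate 3 of era1 at 10 mM, 4 of them no longer passed by edgeR. ATCG00620 then gave -0.92 (adjusted p 0.0575), ATCG00690 -0.79 (0.0614), ATCG00080 -0.53 (0.0664) and ATCG00440 -0.17 (0.166), while ATCG00590 gave -0.64 (0.0437) and passed. ATCG00440 also did not pass without any 1 of the WT libraries at 2 or 10 mM or of the era1 libraries at 2 mM, and not by library totals alone, with -0.24.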

How the results depend on the processing

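For 39 named members in 134 combinations with a contrast, 1852 values were recomputed, of which 1727 kept their direction and side of the threshold, 125 kept direction only (87 on leaving out a library, 15 under DESeq2, 12 by library totals alone) and 0 reversed. In WT at 0 or 2 against 10 mM, 0 lost the call. Counts of passing members moved for WT 0 against 2 mM to 34 with no filter and 28 with only the groups compared, for era1 0 against 2 mM to 18 under DESeq2 and 15 by library totals alone (chosen after seeing the data), and for era1 against WT at 2 mM to 43 with no filter. Leaving out 1 library gave 81 to 83 (WT 0 against 10 mM), 74 to 77 (WT 2 against 10), 9 to 15 (WT 0 against 2), 46 to 69 (era1 0 against 10), 60 to 75 (era1 2 against 10), 15 to 47 (era1 0 against 2), 63 to 73 (era1 against WT at 0 mM), 19 to 28 (at 2 mM), 11 to 24 (at 10 mM), 39 to 68 (interaction, 0 mM) and 7 to 30 (interaction, 2 mM). The causes were not tested.

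Over all read records the chloroplast share was 3.45% and 3.31% in WT at 0 and 2 mM and 2.63% and 2.87% in era1, and over nuclear counts 3.83% in WT at 2 mM. Without ATCG00470 it was 3.46%, 3.28% and 1.66% in WT at 0, 2 and 10 mM, and 2.63% and 2.84% in era1 at 0 and 2 mM. Over all genes with enough counts, same-numbered libraries deviated little together (correlations of -0.117 to 0.145 over 45 pairs, 1 over 0.1). The highest was between replicate 3 of era1 at 0 mM and at 2 mM. The numbers were not taken as pairs. Most of these genes are nuclear, so the correlations do not test pairing in the chloroplast share. With the replicate block the counts, in the order above, were 83, 76, 15, 63, 70, 36, 74, 28, 20, 60 and 26. RLE and nuclear-gene scaling moved the median of all genes by less than 0.1. Library totals alone moved it by 0.19 for era1 against WT at 0 mM, 0.16 for era1 at 0 against 2 mM, 0.12 for era1 at 0 against 10 mM and 0.15 for the interaction at 0 mM. The filter on low counts left 49 members untested.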
